A study of Rattus norvegicus with 12 samples.

Results

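The 5 genes of the kainate receptor family, Grik1, Grik2, Grik3, Grik4 and Grik5, were followed through messenger RNA profiles of rat brain tissue. They were selected by symbol, and all 5 were among the 18800 gene symbols of the deposited table. All animals were Sprague-Dawley rats. Controls (columns named Sham) were restrained without electroacupuncture, and the labels name no operation for them. Model rats (columns named MCAO) had the MCAO/R operation, in which the middle cerebral artery is occluded and then reperfused, and the same restraint. Electroacupuncture rats (columns named EA) had the MCAO/R operation and restraint and received current through needles at the Tianfu, Chize, Kongzui and Taiyuan acupoints of the Lung Meridian. The sources used here do not give age, sex, time after the operation, brain region or brain side. The title of the study sets the treatment beside synaptic plasticity after ischemia.

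Kainate receptors are ion channels opened by glutamate and assembled as tetramers. GluK1, GluK2 and GluK3, encoded by Grik1 to Grik3, can form channels by themselves, while GluK4 and GluK5, encoded by Grik4 and Grik5, bind the agonist kainate more tightly and reach a working channel only together with a subunit of the first kind. The receptors act on both sides of the synapse: they tune transmitter release, carry slow synaptic currents at the mossy fibre synapses of the hippocampus, and regulate GABA release from interneurons.

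Levels are CPM (counts scaled to a common library size) after TMM scaling, which corrects each library for its composition. The deposited table had 11 columns, and 3 pairs of columns within a group differed by little more than sampling noise, so each pair was counted as 1 sample. The comparisons therefore rest on 3 controls (A to C), 2 model samples (A and B) and 3 electroacupuncture samples (A to C), with totals of 9335913 to 23835724 counts. Neuronal, astrocytic and oligodendrocytic markers were detected in all 8 samples, as the tissue label implies. Among the markers of brain regions and cell types, Gad2, a GABA-synthesizing enzyme, was listed at 0 in control B, model A, model B and electroacupuncture B, and Gabra6, a receptor subunit of cerebellar granule cells, in electroacupuncture C. Electroacupuncture A stood apart, with 4790 CPM summed over 9 genes of striatal medium spiny neurons against 151 to 713 CPM in the other 7 samples, and with the lowest sum of 5 pan-neuronal genes (2066 CPM, against 3663 to 7453 CPM). Results are therefore also given without electroacupuncture A where they move. Model B differed in another list, with 723 CPM summed over 6 genes of neocortical neurons against 132 to 209.5 CPM in the other 7 samples. The part of this difference in the subunit levels was not tested. No source says that each sample is a different animal. The p-values therefore reflect the spread between these samples alone, which may be technical.

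The 4 subunits abundant enough to test did not move as a block in the model. Relative to controls, Grik1 was higher in both model samples, Grik2 and Grik4 were lower in both, and Grik5 was level. None of these differences passed correction over all 15487 genes tested. With electroacupuncture, Grik2 was higher in all 3 samples than in either model sample, which was the largest fold change among these 4 subunits, and it did not pass correction either. Electroacupuncture A had the lowest Grik1, Grik4 and Grik5 and the highest Grik2, but the other differences did not depend on it alone. The Grik4 log2 fold change of electroacupuncture against the model was 0.789 without electroacupuncture A and 0.041 without electroacupuncture B. For Grik5 it was -0.151 without electroacupuncture A and -0.023 without model B. The differences of the model from controls hardly moved without electroacupuncture A. Levels are compared for the same gene across samples and not between genes, because no transcript lengths were used.

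**Figure D1:**
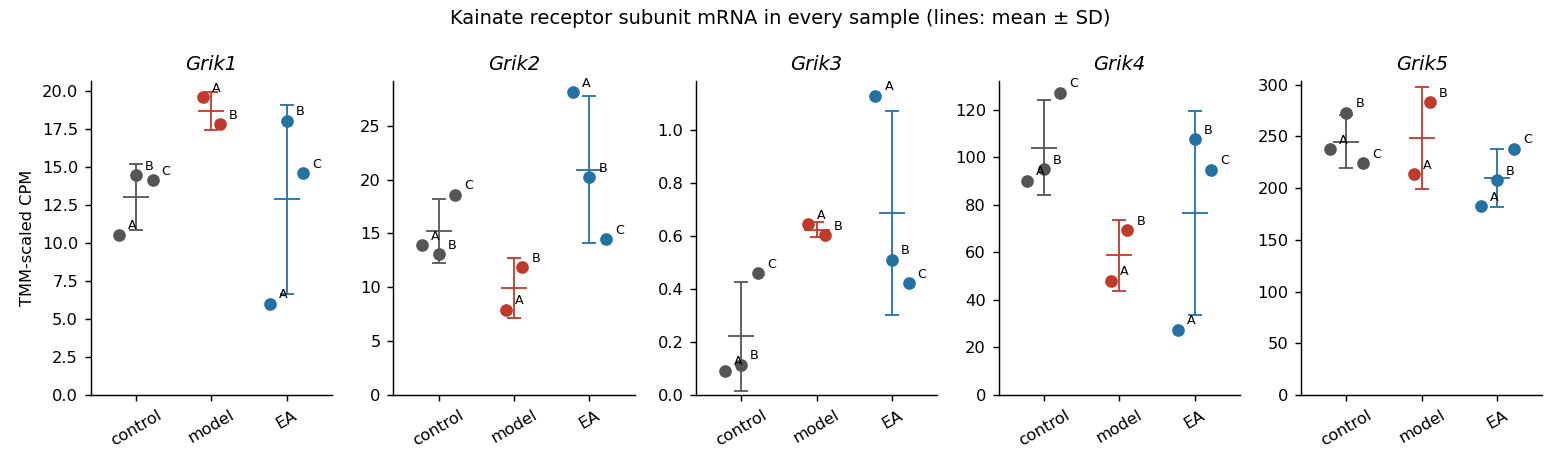
TMM-scaled CPM (vertical axes, linear from 0) of the 5 kainate receptor genes in control, model and electroacupuncture (EA) samples. Each point is 1 sample with its letter, and the lines give the mean ± SD. Grik2 and Grik4 were lower in both model samples than in every control, and electroacupuncture A was the lowest sample for Grik1, Grik4 and Grik5 and the highest for Grik2.

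Among the subunits that can form channels by themselves, Grik1 encodes GluK1, known from interneurons and sensory neurons. It measured 10.5, 14.4 and 14.1 CPM in the controls (listed from A to C, as throughout) and 19.6 and 17.8 CPM in the model samples (A, then B). With electroacupuncture it measured 5.99, 18.0 and 14.6 CPM (A to C). Both model samples were above every control, while the electroacupuncture samples ran from the second-highest to the lowest of all 8. The fitted log2 fold change of the model against controls was 0.52 (SE 0.41, adjusted p = 0.594, edgeR quasi-likelihood test). Without electroacupuncture A it was 0.515 (SE 0.20, unadjusted p = 0.036, edgeR adjusted p = 0.196). Against the model it was -0.53 with electroacupuncture (SE 0.41, edgeR adjusted p = 0.648), and without electroacupuncture A it was -0.19 (SE 0.22, edgeR adjusted p = 0.679).

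Grik2 encodes GluK2, the main subunit of postsynaptic kainate receptors in principal neurons and the one whose loss protects mice from kainate seizures. The controls measured 13.9, 13.1 and 18.6 CPM, and the model samples 7.93 and 11.9 CPM. The electroacupuncture samples measured 28.1, 20.2 and 14.4 CPM. The model samples were the lowest of all 8, and the electroacupuncture samples lay above both of them while overlapping the controls. Group means were 15.2 ± 2.97 CPM (SD, n = 3) for controls, 9.91 ± 2.79 CPM (SD, n = 2) for model rats and 20.9 ± 6.86 CPM (SD, n = 3) after electroacupuncture. The log2 fold change of the model against controls was -0.62 (SE 0.33, edgeR adjusted p = 0.440).

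With electroacupuncture, Grik2 stood 2.11-fold above the model (log2 fold change 1.08, SE 0.33, unadjusted p = 0.0129, edgeR adjusted p = 0.239). An unadjusted p under 0.05 was reached by 13.5% of all genes in this comparison. The same call rule gave an adjusted p of 0.0189 when each of the 11 columns entered edgeR as a separate library, a fit that counts the near-identical columns as independent. In that fit 10.9% of all genes passed, and it called 0 of 4 subunits in the model against controls (7.37% of all genes) and 0 of 4 with electroacupuncture against controls (0% of all genes). Over all alternatives the adjusted p of this difference ran from 0.0189 to 0.557. Without electroacupuncture A the log2 fold change was 0.82 (SE 0.30, edgeR adjusted p = 0.208), so the direction was the same without the sample with the highest Grik2.

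The summed level of striatal medium spiny neuron genes and the Grik2 level were both highest in electroacupuncture A (4790 and 28.1 CPM). Model A had the next-highest striatal sum (713 CPM) and the lowest Grik2 (7.93 CPM). Electroacupuncture B and C had striatal sums of 313 and 160 CPM, both below model A and model B (326 CPM), so the higher striatal level with electroacupuncture was that of electroacupuncture A. None of the 9 striatal genes was at 0 in any sample, and the part these markers have in the Grik2 difference was not tested. In bulk tissue, fewer cells of a type and less RNA per cell cannot be told apart, which holds for every level given here.

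The RefSeq promoter table (assembly GRCr8) had an entry for each of the 5 genes, at 1 annotated transcript start per gene. The 250 bases before that start are shown for Grik2, the subunit with the smallest p, and for Grik3, the subunit with the fewest reads, because they differ widely in base composition. Capitals mark every match, on either strand, of any of 5 core motifs. The first is the GC box, spelled GGGCGG. The second is the CCAAT box of many promoters. The third is the TATA box, searched here as TATAAA. The fourth is the core of the cAMP response element, which was searched as TGACG. The last is an E box bound by basic helix-loop-helix factors, searched as CACGTG. The sources used here do not name the build behind the deposited counts, so the positions belong to the promoter table only.
Grik2 upstream, chr20:54415284-54415533, minus strand: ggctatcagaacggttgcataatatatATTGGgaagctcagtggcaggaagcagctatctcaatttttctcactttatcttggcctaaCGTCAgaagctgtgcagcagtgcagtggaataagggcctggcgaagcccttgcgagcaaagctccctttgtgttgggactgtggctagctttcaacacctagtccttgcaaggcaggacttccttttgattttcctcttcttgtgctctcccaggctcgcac
Grik3 upstream, chr5:143052192-143052441, plus strand: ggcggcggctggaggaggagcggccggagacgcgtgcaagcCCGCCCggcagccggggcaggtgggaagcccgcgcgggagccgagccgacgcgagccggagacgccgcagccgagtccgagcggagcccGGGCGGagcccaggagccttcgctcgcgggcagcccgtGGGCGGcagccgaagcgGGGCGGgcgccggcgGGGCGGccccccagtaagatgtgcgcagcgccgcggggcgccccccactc

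The Grik2 window was 49.6% G or C and held 1 CCAAT match and 1 TGACG match, motifs found in 34.0% and 18.2% of the 33465 promoter windows of the same length. The Grik3 window was 81.6% G or C, above 99.3% of all windows, and held 5 GGGCGG matches, a motif present in 30.5% of windows. The windows of Grik1, Grik4 and Grik5 were 57.6%, 43.2% and 70.8% G or C, and 1 GGGCGG match in Grik5 was their only match to the 5 motifs. A match is a run of letters and not a measured binding site.

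Grik3 encodes GluK3, a subunit of low glutamate sensitivity that contributes to presynaptic receptors. It was close to the limit of detection, with 1, 1 and 5 reads in the controls, 12 and 11 reads in the model samples, and 13, 12 and 4 reads in the electroacupuncture samples. The model A and B counts each pool 2 columns, as does that of electroacupuncture B. In CPM this was 0.0917, 0.114 and 0.458 (controls), 0.643 and 0.602 (model) and 1.13, 0.510 and 0.422 (electroacupuncture). Counting error alone spans 0.332 to 1.12 CPM for the 12 reads of model A (exact Poisson interval, 95%) and 0.149 to 1.07 CPM for the 5 reads of control C, so single samples overlap. Grik3 did not pass the filter on low counts and has no place in the main test. With no such filter its log2 fold change was 1.42 (SE 0.79, edgeR adjusted p = 0.494) for the model against controls and 1.56 (SE 0.75, edgeR adjusted p = 0.864) for electroacupuncture against controls.

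Of the subunits that need a partner, Grik4 encodes GluK4, known from the CA3 field and dentate gyrus of the hippocampus. The controls measured 90.1, 95.0 and 127 CPM, and the model samples 48.1 and 69.3 CPM. Electroacupuncture samples measured 27.5, 107 and 94.7 CPM. Both model samples lay under every control, and the electroacupuncture samples fell on both sides of the model. Electroacupuncture A was the lowest of all 8, 4.62-fold below control C. The log2 fold change was -0.83 for the model against controls (SE 0.52, edgeR adjusted p = 0.506) and 0.38 for electroacupuncture against the model (SE 0.51, edgeR adjusted p = 0.813).

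Leaving out electroacupuncture A narrowed the spread of Grik4 and brought these values nearer to the threshold without passing it. The model against controls was then at -0.83 (SE 0.23, unadjusted p = 0.00763, edgeR adjusted p = 0.0948). Over the alternatives that kept both model samples, the adjusted p ran from 0.0948 to 0.729. Without electroacupuncture A, 3318 of 15275 genes had an unadjusted p under 0.05 in that comparison and 565 were called. Electroacupuncture against the model was at 0.79 (SE 0.24, edgeR adjusted p = 0.153), and against controls at -0.04 (SE 0.22, edgeR adjusted p = 0.9998), where the fit of all samples had -0.44 (SE 0.45, edgeR adjusted p = 0.844).

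The 3 samples with the lowest Grik4 were also the 3 with the lowest hippocampal markers. Summed over Prox1, C1ql2, Dsp, Fibcd1, Wfs1 and Zbtb20, these stood at 393 to 438 CPM for controls, 131 and 104 CPM for the model samples, 118 CPM for electroacupuncture A and 354 and 327 CPM for the other 2 electroacupuncture samples. All 6 were lower in both model samples than in every control, as were 19.6% of all genes tested, and none of the 6 was at 0 in any sample. Prox1, a transcription factor of dentate granule cells, measured 96.0, 70.8 and 62.7 CPM (controls), 6.38 and 3.83 CPM (model) and 9.80, 61.3 and 61.1 CPM (electroacupuncture). Grik4 kept a larger part of its control level than Prox1 in these samples, which did not hold for every one of the 6 markers. Zbtb20 measured 111, 157 and 114 CPM (controls), 101 and 37.3 CPM (model) and 54.1, 71.0 and 117 CPM (electroacupuncture). The part of the hippocampal markers in the Grik4 difference was not tested.

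**Figure D2:**
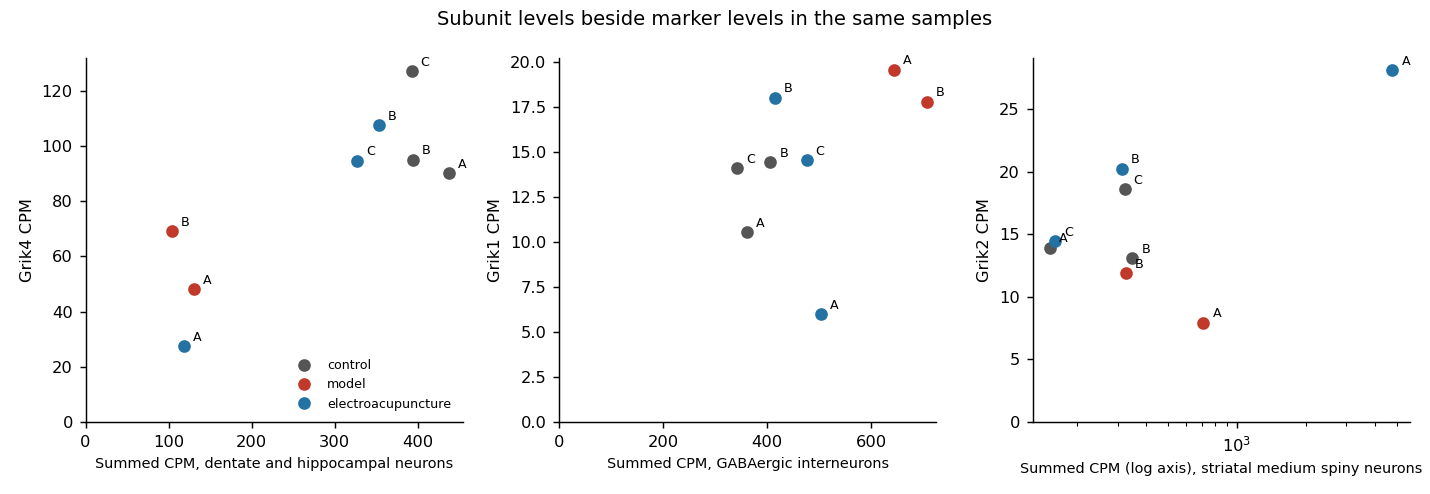
CPM of Grik4, Grik1 and Grik2 (vertical axes) against the summed CPM of hippocampal, interneuron and striatal marker genes (horizontal axes, the last one logarithmic), with 1 point per sample, coloured by group and lettered. Model A, model B and electroacupuncture A lie at 104 to 131 CPM of hippocampal markers and at 27.5 to 69.3 CPM of Grik4, below the other 5 samples on both axes.

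Grik5 encodes GluK5, the broadly expressed partner subunit of most brain kainate receptors, and was the steadiest member. It measured 238, 273 and 224 CPM (controls), 213 and 283 CPM (model) and 183, 208 and 238 CPM (electroacupuncture). Its highest sample was 1.55-fold above its lowest, against 3.27-fold for Grik1, 3.54-fold for Grik2 and 4.62-fold for Grik4. All 3 groups overlapped. The log2 fold change was 0.02 for the model against controls (SE 0.20, edgeR adjusted p = 0.970) and -0.24 for electroacupuncture against the model (SE 0.20, edgeR adjusted p = 0.667).

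**Figure D3:**
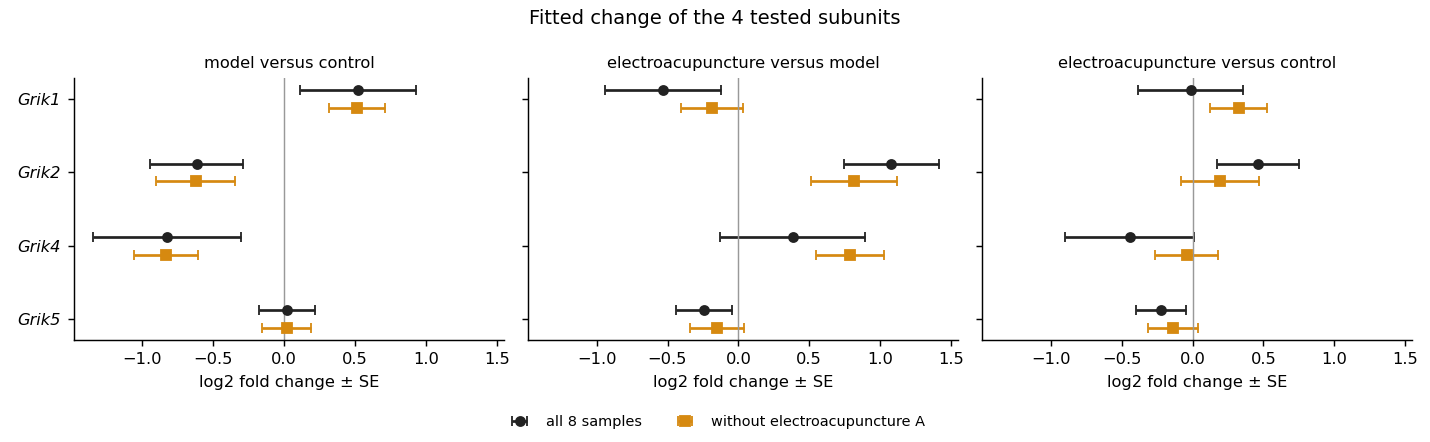
Log2 fold change ± SE (horizontal axes) of Grik1, Grik2, Grik4 and Grik5 in the 3 comparisons, fitted with edgeR on all 8 samples (circles) and without electroacupuncture A (squares). The Grik4 estimate against the model moved from 0.38 to 0.79 when that sample was left out, and its SE from 0.51 to 0.24.

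Counted over the family, edgeR called 0 of the 4 tested subunits for the model against controls, where 0.00646% of all genes were called, 0 of 4 for electroacupuncture against the model (0% of all genes) and 0 of 4 for electroacupuncture against controls (0% of all genes). An unadjusted p under 0.05 was reached by 0, 1 and 0 of the 4, the 1 being Grik2, against 13.8%, 13.5% and 3.66% of all genes. DESeq2 also called 0 of the members in each comparison, where it called 5.11%, 4.51% and 0.0054% of all genes. Model and control samples did not overlap for 3 of the 4 tested subunits, against 37.8% of all genes tested. Electroacupuncture and model samples did not overlap for 1 of 4 (24.6% of all genes), and electroacupuncture and control samples for 0 of 4 (10.9% of all genes). The median log2 fold change of the 4 was -0.30, 0.07 and -0.12 in the same order, beside 0.02, 0.03 and 0.01 over all genes. The first 2 comparisons share the model samples, so opposite signs in them are not separate observations.

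The makeup of the receptor pool within a sample does not depend on how libraries are scaled. Grik4 made up 25.6% (24.2% to 27.0%, exact binomial 95% interval), 24.0% (22.6% to 25.5%) and 33.1% (31.6% to 34.5%) of all kainate receptor reads in the controls. In the model samples its share was 16.6% (15.6% to 17.6%) and 18.1% (17.2% to 19.0%). In the electroacupuncture samples it was 11.2% (10.1% to 12.4%), 30.3% (29.4% to 31.3%) and 26.1% (24.7% to 27.6%). Both model shares lay below every control share, while 2 of the 3 electroacupuncture shares lay within the control range. These intervals cover at most the counting error within a sample, and not the spread between samples. The sources used here do not say whether molecular identifiers entered the counting.

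Grik2 took 11.5% of the reads in electroacupuncture A (10.3% to 12.7%), its largest share, and from 2.74% (2.32% to 3.21%, model A) to 5.71% (5.23% to 6.23%, electroacupuncture B) elsewhere. Grik5 took from 58.3% (56.8% to 59.8%, control C) to 74.4% (72.8% to 76.0%, electroacupuncture A). The shares compare 1 gene across samples, because longer transcripts give more reads.

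**Figure D4:**
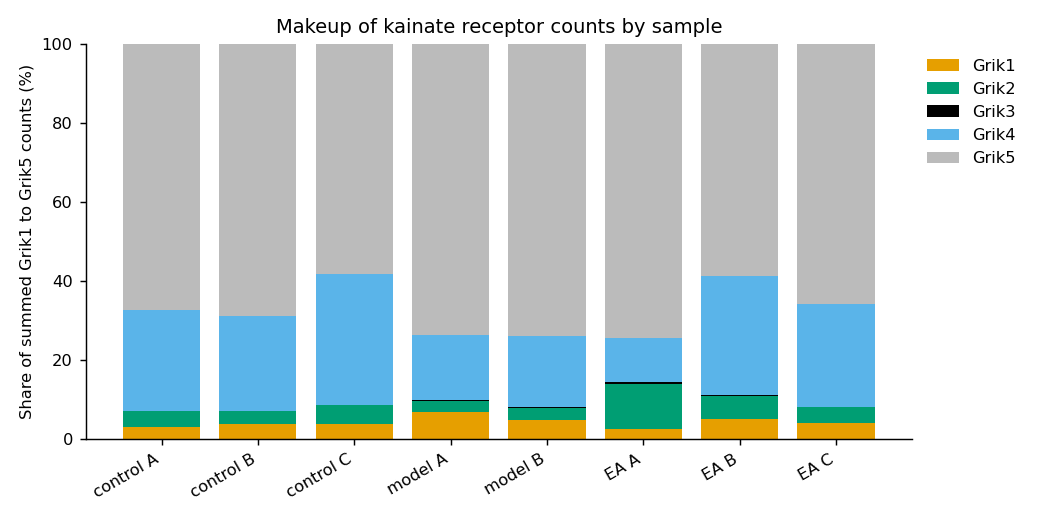
Share of each gene in the summed Grik1 to Grik5 counts of a sample (vertical axis, percent, stacked to 100), for the 8 samples (EA, electroacupuncture). Grik4 takes 16.6% and 18.1% in the model samples and 24.0% to 33.1% in controls, and Grik2 takes 11.5% in electroacupuncture A.

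The balance between Grik1 and Grik2 was taken as the ratio of their reads. The controls held 0.757 (0.589 to 0.970), 1.10 (0.851 to 1.43) and 0.759 (0.611 to 0.940) Grik1 reads per Grik2 read, where the brackets give exact binomial 95% intervals. The model samples held 2.47 (2.03 to 3.01) and 1.5 (1.26 to 1.79). The electroacupuncture samples held 0.213 (0.162 to 0.277), 0.891 (0.780 to 1.02) and 1.01 (0.789 to 1.29). The ratios of model A and model B were the highest of the 8, although the interval of model B overlaps those of control B and electroacupuncture C. The ratio was chosen after the levels were known and is given without a test. Interneuron markers, summed over 6 genes, stood at 343 to 406 CPM for controls, 643 and 706 CPM for model rats and 502, 414 and 476 CPM after electroacupuncture, with 4 of the 6 above every control in both model samples (18.2% of all genes). The sum is carried mainly by Gad1, Sst and Pvalb, and Pvalb, a marker of fast-spiking interneurons, was below every control in model A (37.2 CPM) and above every control in model B (183 CPM). Gad1 was highest in model A and electroacupuncture A (319 CPM each), the samples with the highest striatal sums (713 and 4790 CPM). Sst was highest in model A and model B (255 and 299 CPM). The part of striatal cells in the Gad1 level was not tested. Gad2, a defining marker, was at 0 in both model samples, but also in control B and electroacupuncture B, so its zeros did not follow the groups. The part of interneurons in the Grik1 level was not tested.

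The genes most like each subunit were taken as those with the highest Pearson correlation of log2 CPM over the 8 samples, among 14810 genes averaging 1 CPM or more. With so few samples and so many genes, high values are given as a description only. For Grik2 they were Slc35a2, a Golgi transporter of UDP-galactose (r = 0.98), Calu, a calcium-binding protein of the secretory pathway (0.98), and Adcy3, an adenylyl cyclase (0.98). Calu measured 39.9, 36.8 and 48.3 CPM (controls), 27.9 and 32.8 CPM (model) and 60.0, 53.7 and 37.9 CPM (electroacupuncture), the same order of groups as Grik2. For Grik4 they included Actg1, a cytoplasmic actin (0.99), and Ric8a, a chaperone and exchange factor of G protein alpha subunits (0.98).

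The nearest genes to Grik1 were Nnmt, a methyltransferase of nicotinamide (0.98), Tmem242 (0.98) and Rap2c, a small GTPase (0.96). Rap2c ran from 44.9 CPM in electroacupuncture A to 63.5 CPM in model A, the samples that also bound the range of Grik1. The nearest genes to Grik5 were Kifc2, a kinesin motor of neurons (0.98), Aste1 (0.96) and Eif4g3, a translation initiation factor (0.96). Among the subunits themselves, Grik1 and Grik2 ran in opposite directions over the 8 samples (r = -0.69), and Grik4 was nearer to Grik1 (0.55) than to Grik2 (-0.12). The samples share group, region content and the outlying electroacupuncture A, so these values are no measure of joint control.

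Of 30 genes that modify, anchor or signal from kainate receptors, 12 were higher and 18 lower in estimate in the model than in controls, with a median log2 fold change of -0.08 beside 0.02 over all genes. Against the model, 22 were higher and 8 lower with electroacupuncture (median 0.13, beside 0.03). None of the 30 passed edgeR in any of the 3 comparisons (lowest adjusted p 0.108, 0.135 and 0.843). Over all genes the shares called were 0.00646%, 0% and 0%. In the same order 4, 4 and 2 of the 30 had an unadjusted p under 0.05, beside 13.8%, 13.5% and 3.66% of all genes. Groups did not overlap for 11 lower and 3 higher of the 30 in the model against controls (19.6% and 18.2% of all genes), and for 1 lower and 5 higher with electroacupuncture against the model (11.7% and 12.9%).

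The auxiliary subunits Neto1 and Neto2 are membrane proteins that slow the closing of kainate channels. Neto1 measured 72.3 ± 14.2 CPM (SD, n = 3) for controls, 57.7 ± 8.65 CPM (SD, n = 2) for model rats and 64.6 ± 15.5 CPM (SD, n = 3) after electroacupuncture, and all groups overlapped. Neto2 measured 4.86, 4.66 and 3.85 CPM (controls), 4.82 and 5.97 CPM (model) and 15.7, 5.78 and 2.85 CPM (electroacupuncture). Its highest sample was electroacupuncture A, also the highest for Grik2. Neither gene reached an unadjusted p under 0.05 in the first 2 comparisons (Neto1 adjusted p = 0.584 and 0.837, Neto2 adjusted p = 0.869 and 0.756, edgeR).

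Among 11 scaffold and trafficking genes, 5 were lower without overlap in the model than in controls (19.6% of all genes) and 1 was higher (18.2%). Dlg4, which encodes the postsynaptic scaffold PSD-95, measured 821, 710 and 708 CPM (controls), 364 and 623 CPM (model) and 805, 773 and 725 CPM (electroacupuncture). Its log2 fold change was -0.60 in the model (SE 0.25, edgeR adjusted p = 0.347) and 0.64 with electroacupuncture against the model (SE 0.25, edgeR adjusted p = 0.327). Grip1, a PDZ scaffold that binds AMPA and kainate subunits, measured 15.9 ± 0.190 CPM (SD, n = 3), 12.1 ± 2.92 CPM (SD, n = 2) and 17.4 ± 1.04 CPM (SD, n = 3) in control, model and electroacupuncture samples. Nsf, an ATPase of vesicle fusion and receptor trafficking, measured 227 ± 37.7 CPM (SD, n = 3) for controls, 137 ± 51.8 CPM (SD, n = 2) for model rats and 216 ± 59.0 CPM (SD, n = 3) after electroacupuncture. For Dlg4, Grip1 and Nsf, both model samples were below every sample of the other groups, as for Grik2. These 3 were named for the smallest p among the 11 genes, a choice that favours such a pattern. Of all genes, 19.6% were lower without overlap in the model than in controls. With electroacupuncture against the model, 12.9% were higher without overlap.

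Mossy fibre organisers are secreted or membrane proteins that place kainate receptors at hippocampal synapses. C1ql2, a secreted ligand of GluK2 and GluK4, measured 53.3, 32.1 and 57.3 CPM (controls), 0.375 and 0.109 CPM (model) and 5.81, 55.5 and 32.9 CPM (electroacupuncture) (edgeR adjusted p = 0.108 in the model and 0.135 with electroacupuncture against the model). C1ql2 is itself 1 of the 6 hippocampal markers above. Its relative C1ql3 measured 43.2, 45.0 and 49.9 CPM (controls), 13.0 and 37.8 CPM (model) and 3.47, 48.6 and 42.2 CPM (electroacupuncture). Nrxn3, a presynaptic adhesion protein bound by these ligands, went the other way, at 141 ± 26.5 CPM (SD, n = 3) for controls, 224 ± 45.2 CPM (SD, n = 2) for model rats and 129 ± 27.9 CPM (SD, n = 3) after electroacupuncture. C1ql2 and C1ql3 were lowest in the same 3 samples as Grik4.

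**Figure D5:**
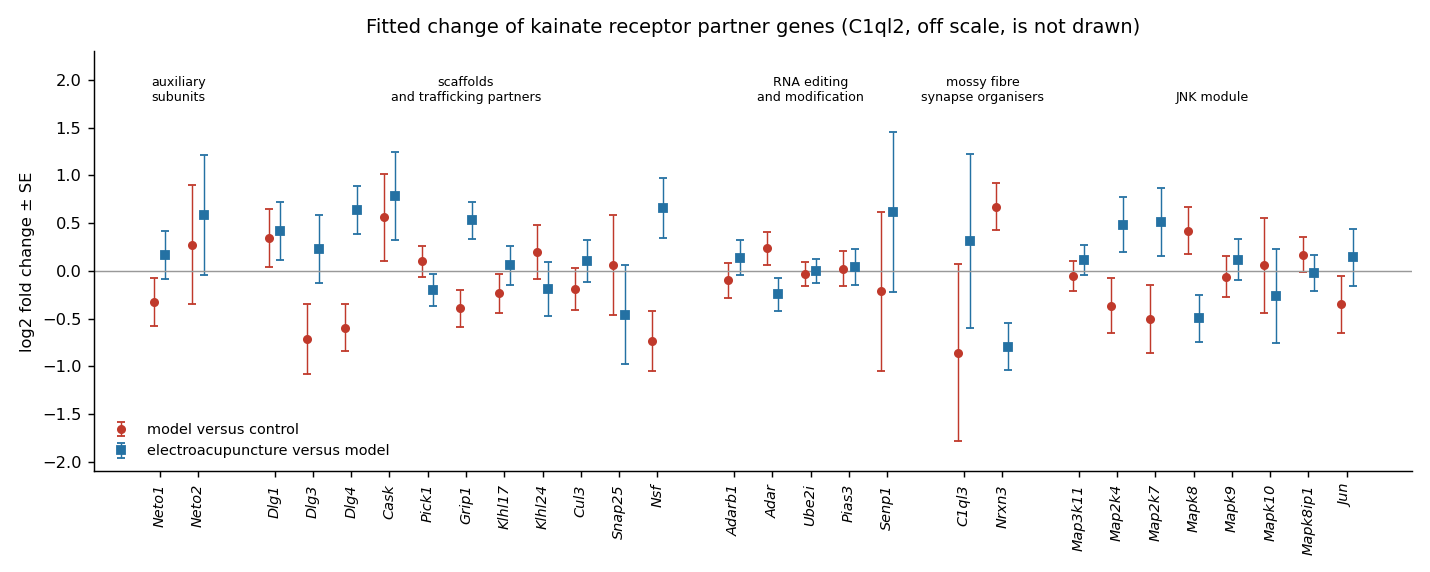
Log2 fold change ± SE (vertical axis) of kainate receptor partner genes, grouped by role, for the model against controls (circles) and electroacupuncture against the model (squares), from the edgeR fit of 8 samples. C1ql2 is off scale and not drawn. Dlg4, Grip1 and Nsf lie below 0 in the first comparison and above 0 in the second, and none of the genes drawn passed correction.

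GluK2 is linked through PSD-95 to the kinases MLK3 and JNK3, a chain studied in ischemic neuron death. Of 8 genes of this module, 3 were higher and 5 lower in estimate in the model (median log2 fold change -0.06), and 5 were higher and 3 lower with electroacupuncture against the model (median 0.12). Map3k11, which encodes MLK3, measured 28.7 ± 2.20 CPM (SD, n = 3) for controls, 27.7 ± 2.76 CPM (SD, n = 2) for model rats and 30.0 ± 2.93 CPM (SD, n = 3) after electroacupuncture. Mapk8, which encodes JNK1, had the smallest p of the module and measured 71.2 ± 11.1, 95.2 ± 11.9 and 67.5 ± 18.8 CPM in the same groups (edgeR adjusted p = 0.480 and 0.445). Map2k4 and Map2k7, the kinases upstream of JNK, had adjusted p-values of 0.598 and 0.558 in the model and 0.534 and 0.610 with electroacupuncture. The module thus had 0 of 8 genes at an unadjusted p under 0.05 in either comparison (13.8% and 13.5% of all genes).

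RNA editing of the pore changes the ion flow through GluK1 and GluK2. Adarb1, which encodes the enzyme that edits the GluK1 and GluK2 pore, measured 111 ± 4.49 CPM (SD, n = 3) for controls, 104 ± 29.5 CPM (SD, n = 2) for model rats and 114 ± 5.69 CPM (SD, n = 3) after electroacupuncture. Adar, which encodes another editing enzyme and had the smallest p of its list, measured 143 ± 4.15 CPM (SD, n = 3), 168.5 ± 36.7 CPM (SD, n = 2) and 142 ± 13.4 CPM (SD, n = 3) in the same groups (edgeR adjusted p = 0.564 and 0.616). None of the 6 genes in a list of editing enzymes and genes of protein modification had an unadjusted p under 0.05 in the first 2 comparisons. Over all genes the shares were 13.8% and 13.5%. Editing itself was not analysed here.

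Among 13 other ionotropic glutamate receptor genes, none passed edgeR in the model against controls (0.00646% of all genes). None passed with electroacupuncture against the model either (0% of all genes). In each comparison 3 of the 13 had an unadjusted p under 0.05, beside 13.8% and 13.5% of all genes. The 3 with the smallest p were Gria1, Grin2a and Grin2d in both comparisons. Gria1 and Grin2a were lower in the model than in controls (log2 fold changes -1.44 and -3.10) and higher with electroacupuncture than in the model (1.34 and 2.88), while Grin2d had 0.68 and -0.86. The median log2 fold change of all 13 genes was -0.29 in the model and 0.04 with electroacupuncture against the model, beside -0.30 and 0.07 for the kainate subunits. A difference between the receptor families was not tested.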

How the data were processed

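Poly(A) RNA was sequenced from both ends (labels' protocols). The authors deposited expected counts per gene (estimated counts with up to 2 decimals), without scaling. The submitters' processing notes name DESeq2 1.16.1, featureCounts 1.5.0-p3, HISAT2 2.0.5 and StringTie 1.3.3b. The sources used here do not say which of them made the deposited estimated counts, which genome build was used or how reads shared between genes were handled. Grik4 had a fractional value in all 11 columns, Grik1 and Grik2 in 1 each, so reads shared with other genes are possible.

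Of 18804 rows, 4 symbols on more than 1 row were summed and values rounded. Columns name a group but not a sample. Columns of a group were compared by their squared differences per gene over the sampling variance. The median was 1.34 to 1.40 in 3 pairs, which were summed, and 4.75 to 26.5 in the other 12. The limit for summing was 2. The control group has 3 columns for 4 labelled samples. Tests used edgeR 4.0.16 in R 4.3.3 (quasi-likelihood, robust, TMM, default filter by group, 1 fit of 8 samples, 5 residual degrees of freedom), two-sided with Benjamini-Hochberg adjustment over 15487 genes and a threshold of 0.05. SEs come from the F statistic. The code was run on simulated counts with larger changes than those of the tested subunits and a smaller spread than in these data. That run therefore does not show how often changes of the size seen here would be missed. The members, the 3 genes most like each tested member and up to 3 genes per list with the smallest p are named, except that some genes are not reported here; Map3k11 was added after its values were seen. Members, lists and tests were chosen with earlier results of these data known. Alternatives were DESeq2 1.42.0, separate or averaged columns, other scalings and filters, 2-group fits and leaving out each sample.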

Additional observations from a re-analysis of the deposited data

How the results depend on the processing

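The count of kainate subunits called was 0 in all 3 comparisons under the settings run, with 1 exception: with every column as a separate library, 1 was called for electroacupuncture against the model (Grik2, log2 fold change 1.07, edgeR adjusted p = 0.0189). Of 192 alternative fold changes of Grik1, Grik2, Grik4 and Grik5, 183 kept direction and side of the threshold, and 8 turned sign, all from values near 0. Grik1 with electroacupuncture against controls was -0.01 and became 0.121 with separate columns and 0.039 with total counts, and ran from -0.35 to 0.33 when 1 sample was left out. Grik5 in the model against controls was 0.02 and ran from -0.20 to 0.21 when 1 sample was left out. The cause was not tested. Total counts in place of TMM moved the median log2 fold change of all genes from 0.02 to 0.13 in the model against controls. Genes called over the whole table in that comparison numbered 1 in the edgeR fit of 8 samples, 799 with DESeq2, 1129 with separate columns, 294 with 2 groups, 356 without model A and 565 without electroacupuncture A. Electroacupuncture against the model gave 0, against 705 with DESeq2, 1666 with separate columns, 308 without model A and 278 without electroacupuncture A. No paired analysis was possible because the columns name groups and not the labelled samples, and the pairs that were near-identical lay within groups. Grik3, at 1 to 13 reads, is limited by depth.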
